A study of Cavia porcellus with 30 samples.

Results

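Complex I, the NADH:ubiquinone oxidoreductase of the mitochondrial inner membrane, passes electrons from NADH to ubiquinone and pumps protons, and its membrane arm holds 7 subunits encoded in mitochondrial DNA. The transcripts of these 7 subunits, ND1, ND2, ND3, ND4L, ND4, ND5 and ND6, were followed in guinea pig liver after thioacetamide, a hepatotoxicant that becomes reactive once metabolised and damages the cells around the central veins. They are 7 of 25824 transcripts listed in each library, and all 7 were among the 18239 kept by the filter on low counts. The animals were Hartley guinea pigs in 6 groups of 5, each animal giving 1 library. Vehicle animals received saline at 3 ml/kg, the low dose was 25 mg/kg of thioacetamide and the high dose 100 mg/kg, and livers were taken at 9 h or 33 h. Sex, age and the route of dosing were not in the labels used here. Animals are numbered 1 to 5 within a group in deposit order, and the numbers pair nothing across groups.

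Mitochondrial DNA is transcribed from both strands into long precursor RNAs, which are cut mainly at transfer RNA genes that lie between the coding genes. In mammals ND6 is the only protein gene encoded on the light strand, whereas the other ND genes lie on the heavy strand, and ND4L and ND4 stay joined in a single messenger RNA with overlapping reading frames. Mature messengers of the heavy strand carry short poly(A) tails, which in several cases complete the stop codon, while ND6 RNA of human cells is known to lack a stable tail. The libraries measured here were enriched for poly-A RNA. ND6 levels are therefore levels of what that enrichment recovered.

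The names were inferred, since neither the tables nor the reference used here pair these identifiers with gene names. The 7 identifiers belong to a run of 13 whose numbers skip 3, 5, 2, 1, 0, 0, 1, 1, 0, 3, 0 and 1 places between successive members, the spacing of transfer RNA genes between the 13 protein genes of a mammalian mitochondrial genome. Their lengths were 960 bases for ND1 (ENSCPOT00000017558.1), 1044 for ND2 (ENSCPOT00000017562.2), 346 for ND3 (ENSCPOT00000017577.2), 297 for ND4L (ENSCPOT00000017579.1), 1378 for ND4 (ENSCPOT00000017580.1), 1812 for ND5 (ENSCPOT00000017584.2) and 531 for ND6 (ENSCPOT00000017585.2). Among the 7, the lengths assigned to ND3 and ND4 were the only ones that were not multiples of 3. Stop codons of these genes are completed by the poly(A) tail in other mammals. No length went against its name. The remaining 6 identifiers of the run, in the positions of the COX, ATP synthase and cytochrome b genes, serve below as the comparison.

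Library totals ran from 21352800 to 33842300 estimated counts (6 significant digits). Each library held between 5952 counts (ND4L) and 203039 counts (ND2) of a given complex I transcript, so the spread between animals and not counting noise limited these comparisons. TMM scaling factors, which place the typical transcript at the same level in every library, were 0.903 ± 0.0371 in vehicle livers at 9 h and 0.869 ± 0.0280 at 33 h (SD, n = 5 each). Low dose livers at 33 h had a factor of 1.09 ± 0.0894 (SD, n = 5). High dose livers at 33 h had 1.32 ± 0.0842 (SD, n = 5). The factors of the treated 33 h animals all lay above those of the vehicle animals. The choice between TMM and library totals therefore bears on the fold changes of treated livers at 33 h below. It does not bear on ratios or shares within a library. The labels name the tissue as liver, and this was not checked against liver markers, because no gene names were paired with the identifiers.

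In levels per length, the complex I transcripts ranked in an order that was fixed across all 30 libraries only in its last 3 places. ND1, which lies where the membrane arm meets the peripheral arm and the ubiquinone site, and ND2, an antiporter-like subunit of the proton-pumping part, were the most abundant, with medians of 7177 TPM (range 5592 to 9778) and 7142 TPM (range 5159 to 9968) over 30 libraries. TPM is the count divided by effective transcript length and scaled to the same total in every library. These medians differed little, ND1 being above ND2 in 19 of 30 libraries. ND6 followed at a median of 5892 TPM, with ND2 above ND6 in 25 of 30 libraries. The exceptions were all treated livers at 33 h, those of high dose animals 1, 2 and 3 and low dose animals 4 and 5. ND3 had a median of 5346 TPM, with ND6 above ND3 in 21 of 30 libraries. None of these neighbouring pairs had a stable order. ND4 (median 4043 TPM), ND4L (3166 TPM) and ND5 (1573 TPM) took the last 3 places in that order in every one of the 30 libraries. ND5, like ND2 and ND4 an antiporter-like subunit, was the only member whose range of 1155 to 2333 TPM did not overlap that of the member above it. The median ratio of ND4L to ND5 within a library was 2.06 (range 1.14 to 2.77).

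ND4L and ND4, which share a messenger in mammals, kept a similar ratio of levels per length in all groups. The group mean of ND4L over ND4 in TPM was lowest in high dose livers at 33 h (0.749 ± 0.0670) and highest in low dose livers of that time (0.857 ± 0.0548), and the group ranges overlapped in each of 7 pairwise comparisons (SD, n = 5 each). TPM of short transcripts rests on the effective length, which ran from 96.7 to 126.9 bases for ND4L and from 1129.1 to 1182.3 for ND4 across libraries, so part of the spread between libraries can lie in that estimate, which was not tested. By mean TPM in the vehicle livers, the 7 ranked between place 24 (ND2) and place 90 (ND5) of all listed transcripts. The other 6 mitochondrial identifiers ranked between 10 and 25.

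**Figure D1:**
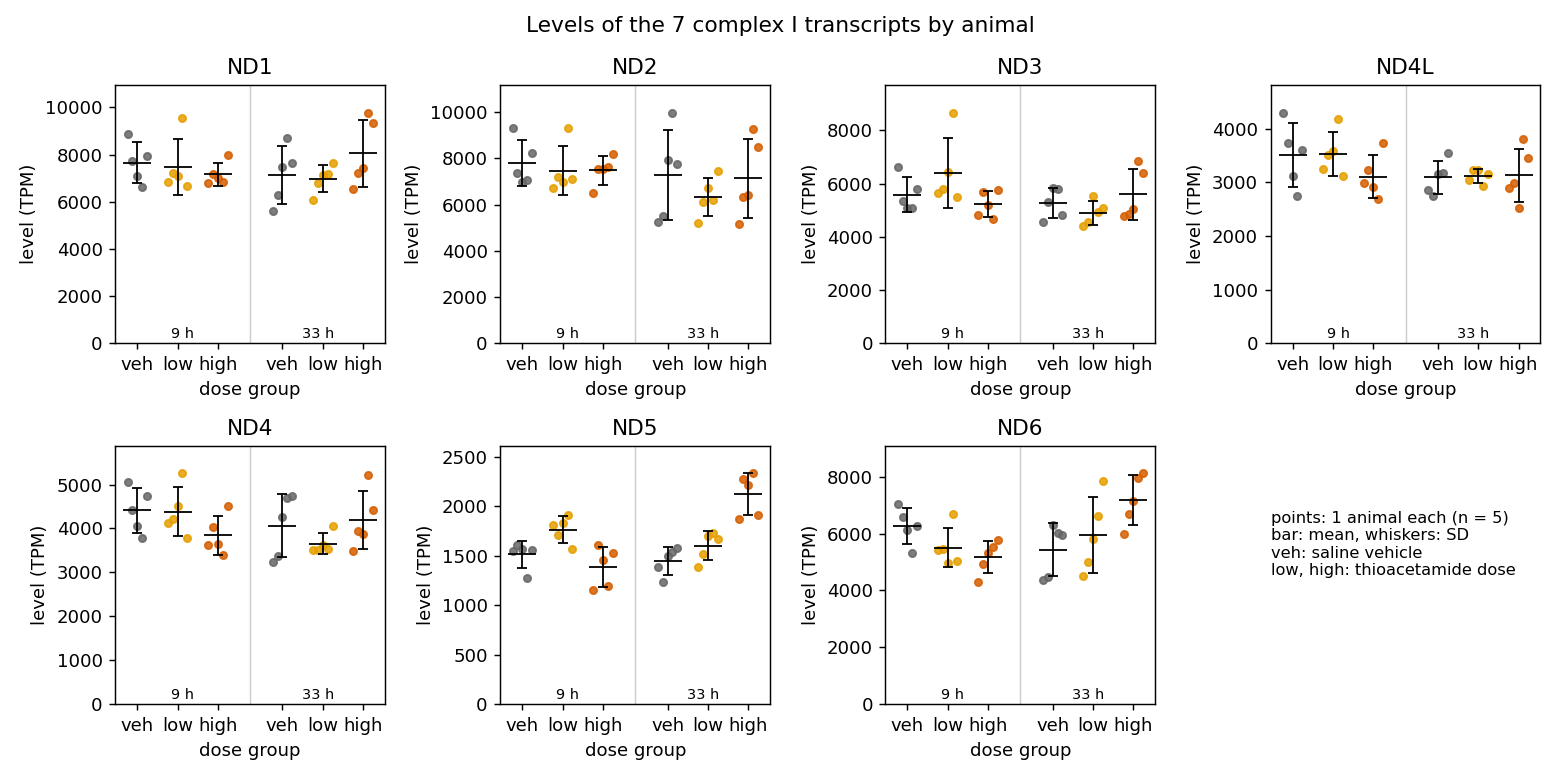
Level in TPM (vertical axis, from 0) of each of the 7 complex I transcripts by dose group, with 9 h on the left and 33 h on the right of each panel. Each point is 1 animal, the bar is the mean and the whiskers are the SD of 5 animals. ND5 at the high dose, 33 h (1875 to 2333 TPM) is the only case in which all treated animals lie above all vehicle animals of the same time, as did 45.3% of all tested transcripts in that comparison.

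Summed over the 7 transcripts, complex I messages took a similar share of the library in vehicle and treated livers of each time. The share of estimated counts at 9 h was 1.92 ± 0.210% in vehicle, 1.95 ± 0.247% in low dose and 1.84 ± 0.117% in high dose livers (SD, n = 5 each). At 33 h it was 1.80 ± 0.331% in vehicle, 1.62 ± 0.141% in low dose and 1.95 ± 0.250% in high dose livers (SD, n = 5 each). The ranges overlapped in each of 7 pairwise comparisons, those of doses within a time and of the vehicle groups. The low dose groups of the separate times, which were not among these, did not overlap (1.79 to 2.38% at 9 h and 1.43 to 1.76% at 33 h), and this difference was not tested. In vehicle livers at 33 h the values for animals 1 to 5 were 1.42, 1.49, 1.98, 2.19 and 1.91%, a spread wider than the difference between any group means. At the high dose, 33 h they were 1.65, 1.84, 1.91, 2.32 and 2.02%. Within the 13 mitochondrial transcripts the 7 complex I members held 39.4 ± 2.65% of counts in vehicle livers and 40.7 ± 1.87% at the high dose at 33 h (SD, n = 5 each), and the group means of all 6 groups stayed between 39.4 and 40.7%. In bulk liver, fewer cells of a type and less RNA per cell cannot be told apart.

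**Figure D2:**
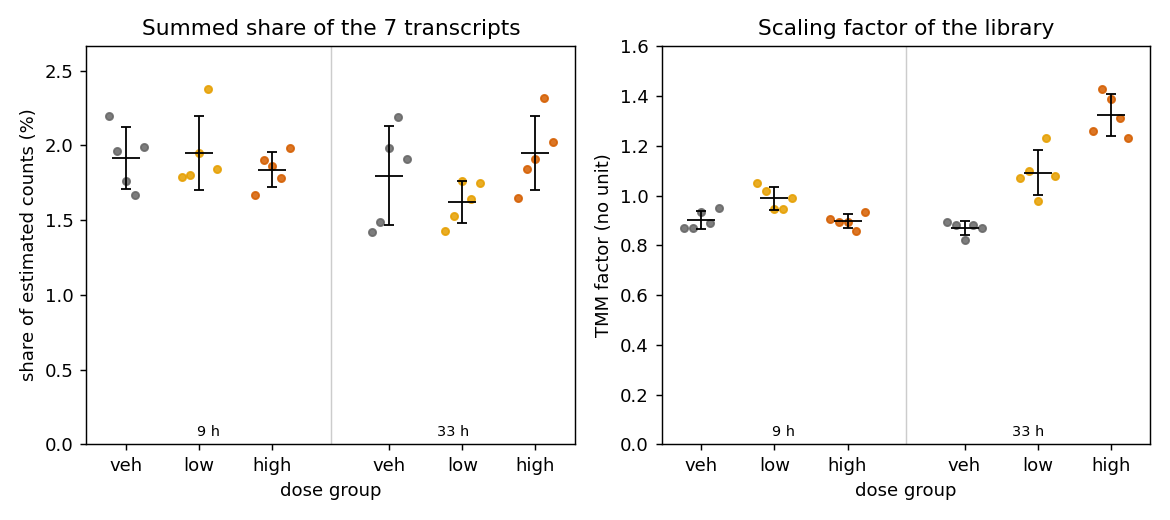
Summed share of estimated counts held by the 7 complex I transcripts, in percent (left), and the TMM scaling factor of each library (right), by dose group and time. Points are animals, the bar is the mean and the whiskers are the SD of 5 animals. The share overlaps between the dose groups of each time, whereas at 33 h the factor rises from 0.869 in vehicle to 1.09 and 1.32 at the low and high dose on average.

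No complex I transcript was called at 9 h for either dose. With TMM scaling and edgeR's quasi-likelihood test, 0 of 7 were called at the low dose (0 at an unadjusted p under 0.05, and 0 with DESeq2 or limma voom), while 24.7% of all tested transcripts were called. The median log2 fold change of the 7 was -0.10 (range -0.28 to 0.13), against 0.00 over all transcripts. The lowest value was that of ND6, at -0.28 ± 0.14 (SE, edgeR adjusted p = 0.157), and the highest that of ND5, at 0.13 ± 0.11 (SE, edgeR adjusted p = 0.427). At the high dose, 0 of 7 were called as well (0 at an unadjusted p under 0.05, and 0 with DESeq2 or limma voom), with 26.3% of all transcripts called. Values ran from -0.19 ± 0.14 for ND6 to 0.02 ± 0.17 for ND2 (SE). The other 6 mitochondrial transcripts were also not called at either dose.

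The ratio of the light-strand ND6 to its heavy-strand neighbour ND5 was lower in low dose livers at 9 h than in vehicle livers. The groups did not overlap, and the difference was not called after adjustment. The TPM ratio of ND6 to ND5 in animals 1 to 5 was 4.53, 4.09, 3.91, 4.15 and 4.0 in vehicle livers and 2.99, 3.19, 2.71, 3.50 and 3.21 at the low dose. Every low dose animal lay below every vehicle animal. The log2 difference was -0.41 ± 0.07 (SE), with a two-sided exact permutation p = 0.00794, the smallest that 5 against 5 animals allow, and an adjusted p = 0.0556 over 7 comparisons. A single comparison at that smallest p could therefore not pass after adjustment, however large its difference. Against the mean of the 6 heavy-strand members in place of ND5 the log2 difference was -0.24, with the same p and adjusted p. At the high dose, 9 h the ratio was 3.77 ± 0.564 (SD, n = 5) and overlapped the vehicle values (log2 difference -0.14 ± 0.10 SE, exact permutation p = 0.198, adjusted p = 0.347). Setting the doses against each other gave 0.27 ± 0.11 (SE, exact permutation p = 0.0476, adjusted p = 0.167). At 33 h the ratio was 3.74 ± 0.395 in vehicle, 3.69 ± 0.599 in low dose and 3.40 ± 0.498 in high dose livers (SD, n = 5 each), with overlapping ranges. None of the 7 comparisons passed after adjustment. For the low dose at 9 h this was set by the smallest p that the group size allows. The protocol names a stranded kit, but whether strand was used in the counting is not given in the sources used here, so reads of ND6 and of precursor RNA antisense to it cannot be told apart.

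At 33 h after the low dose, 5 of the 7 complex I transcripts were lower relative to the typical transcript, a difference that was not called as a share of the library. With TMM scaling the called members were ND1, ND2, ND3, ND4L and ND4, with log2 fold changes from -0.60 ± 0.17 for ND2 (SE, edgeR adjusted p = 0.0103) to -0.39 ± 0.13 for ND4L (SE, edgeR adjusted p = 0.0309). The share called over all transcripts was 25.7% in either direction and 11.4% in the lower direction. The median of the 7 was -0.43 and that of all transcripts 0.03. ND5 (-0.25 ± 0.11 SE, edgeR adjusted p = 0.0925) and ND6 (-0.27 ± 0.14 SE, edgeR adjusted p = 0.171) had the same sign and did not pass. Against library totals 0 of 7 were called with edgeR, with 40.8% of all transcripts called, values from -0.28 to 0.08 and a median of -0.10, while the median of all transcripts was 0.36. The number called was 3 without low dose animal 1 or 4, and 2 without vehicle animal 3 or 4.

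ND4, an antiporter-like pump subunit, had the smallest adjusted p at the low dose, 33 h. Its CPM over the TMM-scaled library size was 3504, 3727, 5234, 5233 and 5212 in vehicle animals 1 to 5 and 3097, 2951, 3618, 2654 and 3321 in the low dose animals. Animals 1 and 2 of the vehicle group stood below the other 3, and the groups overlapped through vehicle animal 1 and low dose animal 3. The log2 fold change was -0.55 ± 0.13 (SE, edgeR adjusted p = 0.00243). In TPM the same livers measured 4066 ± 713 (vehicle) and 3649 ± 238 (low dose, SD, n = 5 each).

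The high dose at 33 h gave the same 5 calls with TMM, and a different split with library totals. ND1, ND2, ND3, ND4L and ND4 were lower by TMM, with log2 fold changes from -0.68 ± 0.17 for ND2 (SE, edgeR adjusted p = 0.00157) to -0.47 ± 0.14 for ND1 (SE, edgeR adjusted p = 0.00533). Of all transcripts 50.7% were called in either direction and 22.5% in the lower direction. The median of all transcripts was 0.09, and the median of the 7 was -0.56. ND5 (-0.08 ± 0.11 SE, edgeR adjusted p = 0.544) and ND6 (-0.25 ± 0.14 SE, edgeR adjusted p = 0.159) were not called. With library totals the first 5 stood between -0.07 and 0.14 and were not called, while ND5 was higher by 0.53 ± 0.10 (SE, edgeR adjusted p = 3.85e-05) and ND6 by 0.36 ± 0.13 (SE, edgeR adjusted p = 0.0136). With library totals 65.5% of all transcripts were called and their median was 0.70. Thus all 7 lay below the median of all transcripts under either scaling, while the sign for ND1, ND3, ND4, ND5 and ND6 turned with the scaling.

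The individual values show both readings. ND5 in vehicle animals 1 to 5 at 33 h measured 1388, 1231, 1500, 1534 and 1578 TPM, and in the high dose animals 1875, 2278, 2212, 2333 and 1914 TPM. All 5 treated animals were above all vehicle animals, as was the case for 45.3% of all tested transcripts in TPM. In CPM over the TMM-scaled library size the same ND5 values were 2048, 1862, 2522, 2344 and 2388 in vehicle and 2029, 2121, 2168, 2306 and 1907 at the high dose, and they overlapped fully. ND4L, a small membrane subunit, measured 327, 317, 399, 377 and 400 CPM over the TMM-scaled library size in vehicle animals and 229, 210, 195, 281 and 268 at the high dose. On this scale ND4L and ND3, a small subunit next to the quinone site, were the 2 members without overlap between high dose and vehicle, both lower, as were 15.2% of all tested transcripts. In TPM ND4L overlapped, at 3094 ± 313 in vehicle and 3132 ± 501 at the high dose (SD, n = 5 each).

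**Figure D3:**
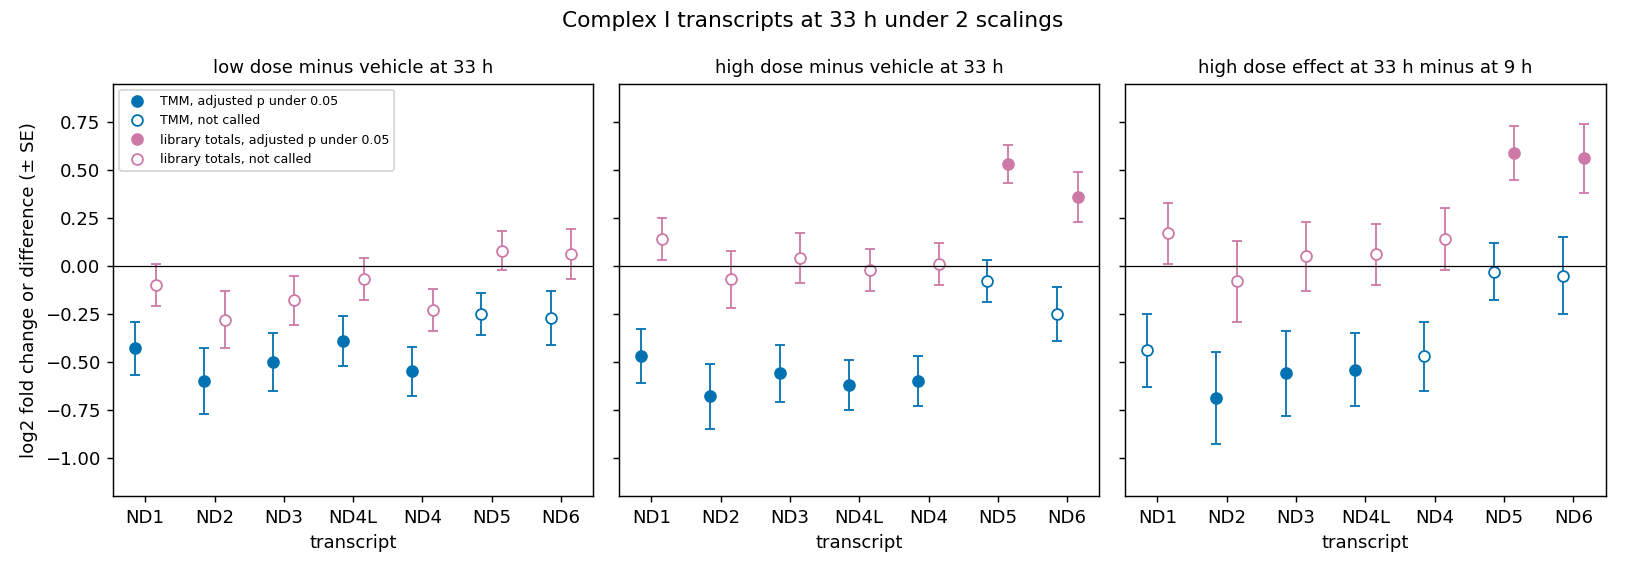
Log2 fold changes with SE (whiskers) of the 7 complex I transcripts with TMM scaling (blue) and with library totals (pink), for the low dose and the high dose against vehicle at 33 h and for the change of the high dose effect between times. Filled points have an edgeR adjusted p under 0.05. At the high dose, 33 h the blue points of ND1, ND2, ND3, ND4L and ND4 lie between -0.68 and -0.47, and the pink points of ND5 and ND6 at 0.53 and 0.36.

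Ratios within a library do not depend on the scaling between libraries. At the high dose, 33 h the ratio of ND4 to ND5 was lower than in vehicle, while that of ND6 to ND5 overlapped vehicle. The ratio of ND4 to ND5 in TPM was 2.34, 2.74, 2.85, 3.07 and 3.00 in vehicle animals 1 to 5 at 33 h and 1.86, 1.73, 1.75, 2.23 and 2.31 at the high dose. Each high dose animal lay below each vehicle animal, with means of 1.98 and 2.80. At the low dose, 33 h the mean was 2.29 ± 0.203 (SD, n = 5), and the range of 2.04 to 2.53 overlapped that of vehicle. At the low dose, 9 h the mean was 2.48, against 2.92 in vehicle livers of that time, with overlapping ranges. This ratio was chosen after the values of ND5 had been seen and was not tested. Nor was the share of ND6, which held 16.1 ± 0.880% of the summed TPM of the 7 in vehicle livers at 33 h and 19.3 ± 1.08% at the high dose (SD, n = 5 each). The ranges of that share, 15.1 to 17.3% and 17.6 to 20.6%, did not overlap. Against the mean of the 6 heavy-strand members the log2 ratio of ND6 was higher by 0.27 at the high dose, 33 h (two-sided exact permutation p = 0.0159, adjusted p = 0.0556 over 7 comparisons, which did not pass).

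**Figure D4:**
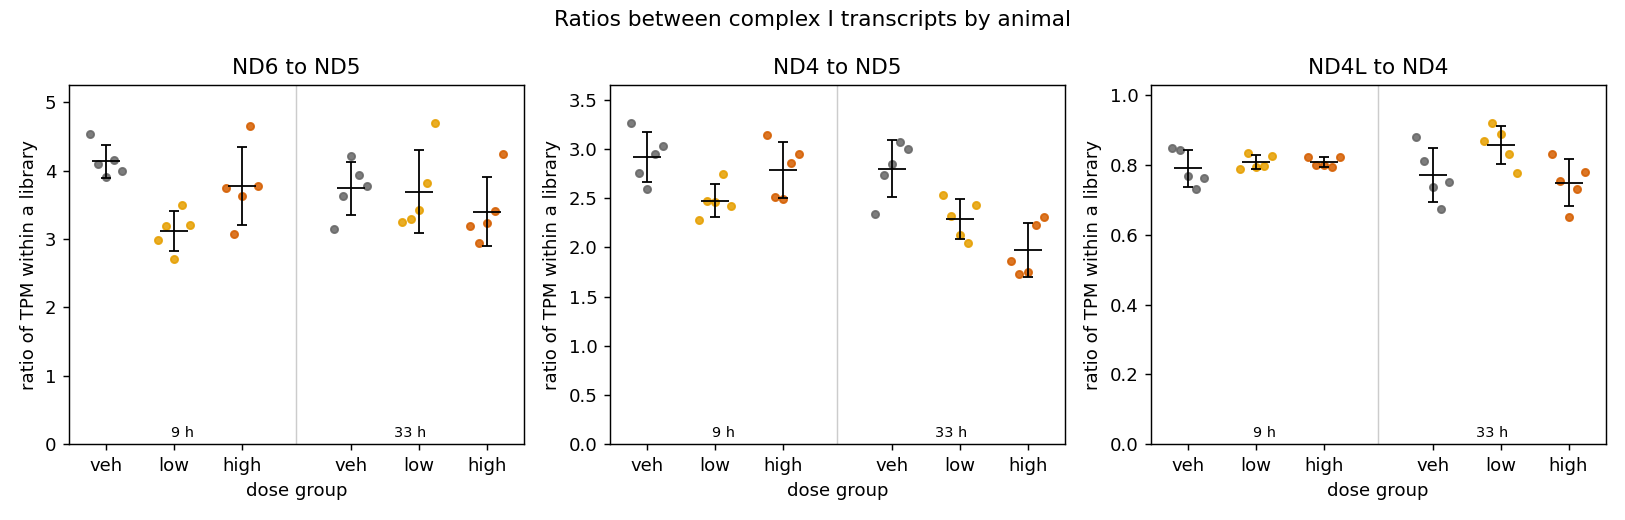
Ratios of TPM within a library (vertical axes from 0) for ND6 to ND5, ND4 to ND5 and ND4L to ND4, by dose group and time. Points are animals, the bar is the mean and the whiskers are the SD of 5 animals. The low dose at 9 h lies below vehicle for ND6 to ND5 (means 3.12 and 4.13), and the high dose at 33 h lies below vehicle for ND4 to ND5 (means 1.98 and 2.80).

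Under TMM no complex I transcript was called between the doses at either time. At 9 h, 0 of 7 were called between high and low dose with edgeR (0 at an unadjusted p under 0.05, and 0 with DESeq2 or limma voom), with 7.08% of all transcripts called. The values ran from -0.18 ± 0.11 for ND5 to 0.17 ± 0.17 for ND2 (SE). At 33 h, 0 of 7 were called with edgeR (0 at an unadjusted p under 0.05, and 0 with DESeq2 or limma voom), against 33.2% of all transcripts, with values from -0.23 ± 0.13 for ND4L to 0.16 ± 0.11 for ND5 (SE). With library totals ND5 alone passed, and in opposite directions at the separate times. ND5 was lower at the high than at the low dose at 9 h, with a log2 difference of -0.32 ± 0.10 (SE, edgeR adjusted p = 0.0361, 10.9% of all transcripts called). At 33 h it was higher at the high dose, by 0.45 ± 0.10 (SE, edgeR adjusted p = 0.000715, 41.3% of all transcripts called). ND5 measured 1809, 1706, 1835, 1910 and 1567 TPM in low dose animals 1 to 5 at 9 h and 1155, 1605, 1462, 1191 and 1531 TPM in the high dose animals, and these ranges overlapped through low dose animal 5 and high dose animal 2.

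Between the vehicle livers of 9 h and 33 h no member was called. With edgeR 0 of 7 were called (0 at an unadjusted p under 0.05, and 0 with DESeq2 or limma voom), where 0.581% of all transcripts were. Log2 differences of 33 h minus 9 h ran from -0.12 ± 0.14 for ND6 to 0.03 ± 0.15 for ND3 (SE).

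Under TMM the high dose effect at 33 h differed from that at 9 h for 3 of 7 members, all in the lower direction. Of all transcripts 35.9% were called in either direction and 16.8% in the lower direction. The count of 3 was not tested against these shares. ND2 had a log2 difference of 33 h minus 9 h of -0.69 ± 0.24 (SE, edgeR adjusted p = 0.0258), ND3 of -0.56 ± 0.22 (SE, edgeR adjusted p = 0.0435) and ND4L of -0.54 ± 0.19 (SE, edgeR adjusted p = 0.0259). The count of 3 fell to 0 without vehicle animal 3 of either time and ran up to 5 without other single animals. With library totals these 3 were not called, and ND5 (0.59 ± 0.14 SE, edgeR adjusted p = 0.000886) and ND6 (0.56 ± 0.18 SE, edgeR adjusted p = 0.00933) were more positive at 33 h, with 53.3% of all transcripts called. For the low dose, 0 of 7 passed with edgeR (3 at an unadjusted p under 0.05, 1 with DESeq2 and 1 with limma voom, in both cases ND3), against 11.3% of all transcripts. The largest difference was that of ND3, at -0.61 ± 0.22 (SE, edgeR adjusted p = 0.0663).

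The other mitochondrial messages gave similar counts of calls. Of the 6 comparison transcripts 5 were lower at the low dose, 33 h and 5 at the high dose, 33 h with TMM, and their medians of -0.45 and -0.51 stood beside -0.43 and -0.56 for the complex I members. No test of a difference between these sets was made. Animals tended to be high or low in several complex I members at once. In the low dose group at 9 h, animal 4 had the highest TPM of all 7 members. In the high dose group at 33 h, animal 4 was highest for 6, the exception being ND6, and animal 1 was lowest for 6, the exception being ND4L. Ranking 18232 other transcripts by the correlation of log2 CPM over 30 libraries with the mean standardised level of the 7, the first 4 places were held by mitochondrial identifiers (r = 0.91 to 0.95), and 4 of the 6 were among the first 20. The nearest outside the mitochondrial run were ENSCPOT00000044455.1 (r = 0.86) and ENSCPOT00000040180.1 (r = 0.85), at 6.76 ± 0.567 and 26.4 ± 3.31 TPM in vehicle livers at 9 h (SD, n = 5 each). These libraries share their scaling factors, which enter every such correlation.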

How the data were processed

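Poly-A enriched, stranded, paired-end RNA libraries were made from guinea pig liver, per the labels' protocols, and quantified by the authors with kallisto 0.42.4, per the submitters' processing notes. Neither the transcript set and its release nor the strand setting is named there. Per the file headers, each deposited table holds length, effective length, estimated count (not normalized) and TPM. Estimated counts were rounded and fitted with edgeR 4.0.16 in R 4.3.3 (filterByExpr defaults, minimum count 10 and minimum total 15, TMM, robust quasi-likelihood, 1 coefficient per group, 24 residual degrees of freedom). A transcript was called where its p, adjusted over 18239 transcripts (Benjamini-Hochberg), was under 0.05. The standard error of a log2 fold change was taken as its size divided by the root of F. Ratios were compared by exact permutation over animals. The fit was tested on simulated counts, drawn from the vehicle animals with a limited set of transcripts changed in a single group. That simulation was not built with a shift in scaling factors between groups. It therefore cannot decide between TMM and library totals. Alternatives were library totals, median of ratios, scaling without the 13 mitochondrial transcripts, other filters, DESeq2 1.42.0, limma 3.58.1 (voom, or log2(TPM + 1)), the compared groups alone, and each animal left out.

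The 7 members, their names and all lists were chosen with earlier results of these data known. All 7 are named, and neighbours in pattern were taken by rank of correlation (prior count 2). The reference table (37416 genes) matched 0 identifiers, so the lists of nuclear complex I subunits, mitochondrial RNA factors and cell type markers, which need gene names, were not run and no sequence is shown. Replicates were taken as separate animals from the series design. No batch is given in the labels.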

Additional observations from a re-analysis of the deposited data

Results flagged for a closer look

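A screen looked for single animals far from the other 4 of their group. It covered the TPM values of the 7 members, their summed share and the ratio of ND6 to ND5, in 54 groups of values. Chance alone flags about 1 in 20 such groups, and 6 were found. Low dose animal 4 at 9 h accounted for 4 of them. It measured 9567 TPM of ND1 (the others 6670 to 7232), 9324 TPM of ND2 (6707 to 7185) and 6687 TPM of ND6 (4977 to 5448), with a summed share of 2.38% of counts (1.79 to 1.95%). Low dose animal 5 at 33 h had 4065 TPM of ND4, against 3502 to 3632 in the others. Vehicle animal 4 at 9 h had 1279 TPM of ND5, against 1552 to 1607.

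The high dose effect differed between the times, by the test of the difference itself, for ND2 (log2 difference of 33 h minus 9 h of -0.69), ND3 (-0.56) and ND4L (-0.54) with TMM scaling (edgeR). These 3 of 7, all in the lower direction, stand beside 35.9% of all transcripts called in either direction and 16.8% called lower. The count was not tested against these shares. None of these differences was called with library totals.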

How the results depend on the processing

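The 9 h comparisons with vehicle and the comparison of vehicle groups kept 0 calls under every alternative run. At 33 h the calls depended on the scaling. With library totals and with limma on log2(TPM + 1), the low dose count of 5 became 0 in both, and the high dose count of 5 lower became 2 higher in both. Between doses each of these settings gave 1 call at 9 h and 1 at 33 h, ND5 in each case. The high dose difference between times (3 calls) became 2 in the other direction in both, and was 5 with DESeq2. The low dose difference between times (0 calls) was 1 with DESeq2 and 1 with limma voom. With the compared groups alone the low dose count at 33 h was 3. Values that turned from negative to positive at the high dose, 33 h with library totals were 0.14 (ND1), 0.04 (ND3), 0.01 (ND4), 0.53 (ND5) and 0.36 (ND6), and with log2(TPM + 1) 0.18 (ND1), 0.08 (ND3), 0.01 (ND4L), 0.05 (ND4), 0.55 (ND5) and 0.41 (ND6). In the high dose difference between times they were 0.17 (ND1), 0.05 (ND3), 0.06 (ND4L), 0.14 (ND4), 0.59 (ND5) and 0.56 (ND6) with library totals, and 0.27 (ND1), 0.03 (ND2), 0.17 (ND3), 0.17 (ND4L), 0.24 (ND4), 0.68 (ND5) and 0.69 (ND6) with log2(TPM + 1). At the low dose, 33 h they were 0.08 (ND5) and 0.06 (ND6) with library totals, and 0.02 (ND4L), 0.15 (ND5) and 0.12 (ND6) with log2(TPM + 1). Both settings leave out the TMM factors, whose group means differ at 33 h.

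With single animals left out, the count of calls ran from 2 to 6 at the low dose, 33 h, was 5 in all 10 fits at the high dose, 33 h, and ran from 0 to 2 and from 0 to 5 for the low and high dose differences between times. The latter count fell to 0 without vehicle animal 3 of either time, to 1 without high dose animal 1, 2 or 3 or vehicle animal 4 at 33 h or vehicle animal 4 or 5 at 9 h, and rose to 5 without high dose animal 4 or 5 at 33 h or vehicle animal 1 of either time. The low dose difference became 1 without vehicle animal 1, low dose animal 1 or low dose animal 2 at 9 h, and 2 without low dose animal 3 at 33 h. The log2 ratio of ND6 to ND5 ran from -0.22 to -0.07 at the high dose, 9 h, passing after adjustment only without high dose animal 4 (-0.22). In that fit the low dose, 9 h comparison, whose own animals were all kept, still had p = 0.00794 (exact permutation). It therefore passed as well, since its p was no larger. No other comparison of that ratio crossed the threshold where its measure was changed or an animal of its own groups was left out. With the mean of the 6 heavy-strand members in place of ND5, the difference at the low dose, 9 h went from -0.41 to -0.24 (adjusted p = 0.0556, exact permutation, in both). That between the doses at 9 h went from 0.27 to 0.08. The uncalled value at the high dose, 33 h went from -0.14 to 0.27, and that at the low dose, 33 h went to 0.17. No paired analysis was made, because each animal gave 1 library, at 1 dose and 1 time, and the labels give no pairing.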
